A study of Rattus norvegicus with 12 samples.

Results

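The antioxidant enzymes and redox systems of the rat heart were taken as the protein-coding genes of the deposited expression table whose symbols belong to the peroxiredoxins, superoxide dismutases, glutathione peroxidases, cytosolic and microsomal glutathione transferases, thioredoxins and thioredoxin reductases, or are Cat, Gsr, Gclc, Gclm, Nqo1, Nfe2l2, Keap1 or Srxn1. This gave 43 genes of 16898 in the table, chosen by name and not by level. Gpx2, Gpx5, Gpx6 and Srxn1 were not analysed here. The study profiled Sprague Dawley rat heart tissue, with 12 samples of which 6 were input RNA and 6 were RNA pulled down for N6-methyladenosine. Input RNA was compared between 3 libraries of older hearts and 3 libraries of postnatal day 0, and the pull-down libraries were not used here. The age of the older hearts is given differently in 2 places, as day 7 by the labels and as 10D by the column headers, so no exact age is claimed for them. No genetic change or treatment is given in the labels for either age, and no label says whether hearts were pooled or came from separate litters.

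Superoxide formed by the respiratory chain and by oxidases is turned into hydrogen peroxide by superoxide dismutases. Peroxide is then removed by catalase, by peroxiredoxins, which are recharged by thioredoxin and its reductases, and by glutathione peroxidases, which spend glutathione. Glutathione is made by glutamate-cysteine ligase (catalytic subunit Gclc, modifier subunit Gclm) and glutathione synthetase, and glutathione transferases attach it to electrophiles. The transcription factor NRF2 (Nfe2l2), held in check by Keap1, drives many of these genes through antioxidant response elements. Heart muscle relies on these systems because of its high rate of oxygen use.

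Levels are FPKM, that is, reads per length of gene and per size of library. Library totals ran from 15027254 to 16097510 reads in the older hearts and from 13489816 to 16297533 at day 0. The 43 genes together held 28021 to 31029 reads per library in the older hearts and 28137 to 32389 at day 0. Tests used limma on log2(FPKM + 1) over 13117 genes averaging 1 FPKM or more, with adjustment over all of them and a threshold of 0.05. A log2 fold change below is the older mean minus the day 0 mean of these values, so changes of low genes are understated. The labels do not say that libraries came from separate animals, and a p-value here reflects only how far these libraries vary, which may be technical. Of the cardiomyocyte markers 9 were found, with summed levels of 55046 to 64106 FPKM in the older hearts and 63571 to 73391 FPKM at day 0, and none was at 0 in any library. Myl2 alone averaged 32288.5 FPKM in older hearts and 41723 FPKM at day 0, so these sums follow it most. Of the 9, 3 had positive and 6 negative log2 fold changes, with Myh6 called higher and Actc1 called lower.

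Of the 39 antioxidant genes that could be tested, 1 was higher and 1 was lower in older hearts, that is 5.13% called. Over all genes tested 9.26% were called (3.52% higher and 5.73% lower), and the share among these genes was below it. The gene that rose was Sod3, the superoxide dismutase outside cells, and the gene that fell was Prdx1, a cytosolic peroxiredoxin. The 39 had a median log2 fold change of -0.10, against -0.11 for all genes tested. Of them 16 were positive (41.0%, against 41.4% of all genes tested) and 23 negative. The libraries of the ages did not overlap in 13 genes (33.3%, against 32.5% of all genes tested), of which 4 were higher in older hearts (10.3%, against 12.2%) and 9 lower (23.1%, against 20.3%). Voom on recovered reads also called 1 higher and 1 lower, with 12.6% of all genes called (7.31% higher and 5.29% lower). An unadjusted limma p under 0.05 was reached by 10 of the 39 (25.6%, against 25.9% of all genes). The filter left out Gsta1, Gsto2, Gstt2 and Gstt3, and a low gene that passes it through 1 age alone is more likely to differ, so the 39 do not stand for all 43.

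The 43 genes summed to 1485, 1684 and 1647 FPKM in the older libraries, against 1843, 1836 and 1810.2 FPKM at day 0. Every older library was lower than every day 0 library. These sums follow the most abundant genes most. Sod1, Gpx1, Prdx2 and Prdx1 together held 42.4% to 45.7% of the sum in older libraries and 45.2% to 48.5% at day 0. Mean levels in older hearts and at day 0 were 195 and 273 FPKM for Gpx1 and 82.2 and 131 FPKM for Prdx1. They were 165 and 194 FPKM for Prdx2 and 268 and 266 FPKM for Sod1. Transcripts of the mitochondrial genome took 12.03%, 10.5% and 10.6% of reads in the older hearts and 8.82%, 8.99% and 7.20% at day 0, and they are part of the library total. With a library total that leaves these transcripts out, the 43 genes summed to 1689, 1882 and 1843 FPKM in older hearts, against 2021, 2017 and 1951 FPKM at day 0, and the ages still did not overlap. As a share of all reads, not scaled by gene length, they held 0.177%, 0.193% and 0.188% in older hearts, against 0.210%, 0.209% and 0.199% at day 0, also without overlap. The ages overlapped only as a share of the reads outside the mitochondrial genome, where both choices differ (0.201%, 0.215% and 0.210% in older hearts, against 0.231%, 0.229% and 0.214% at day 0). The median gene of all those tested was also lower in older hearts, with a log2 fold change of -0.11. With a library total without mitochondrial transcripts it was -0.07. The antioxidant genes had medians of -0.10 and -0.08 in these fits. After centring on the median gene they had 0.02, against 0.01 for all genes.

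**Figure D1:**
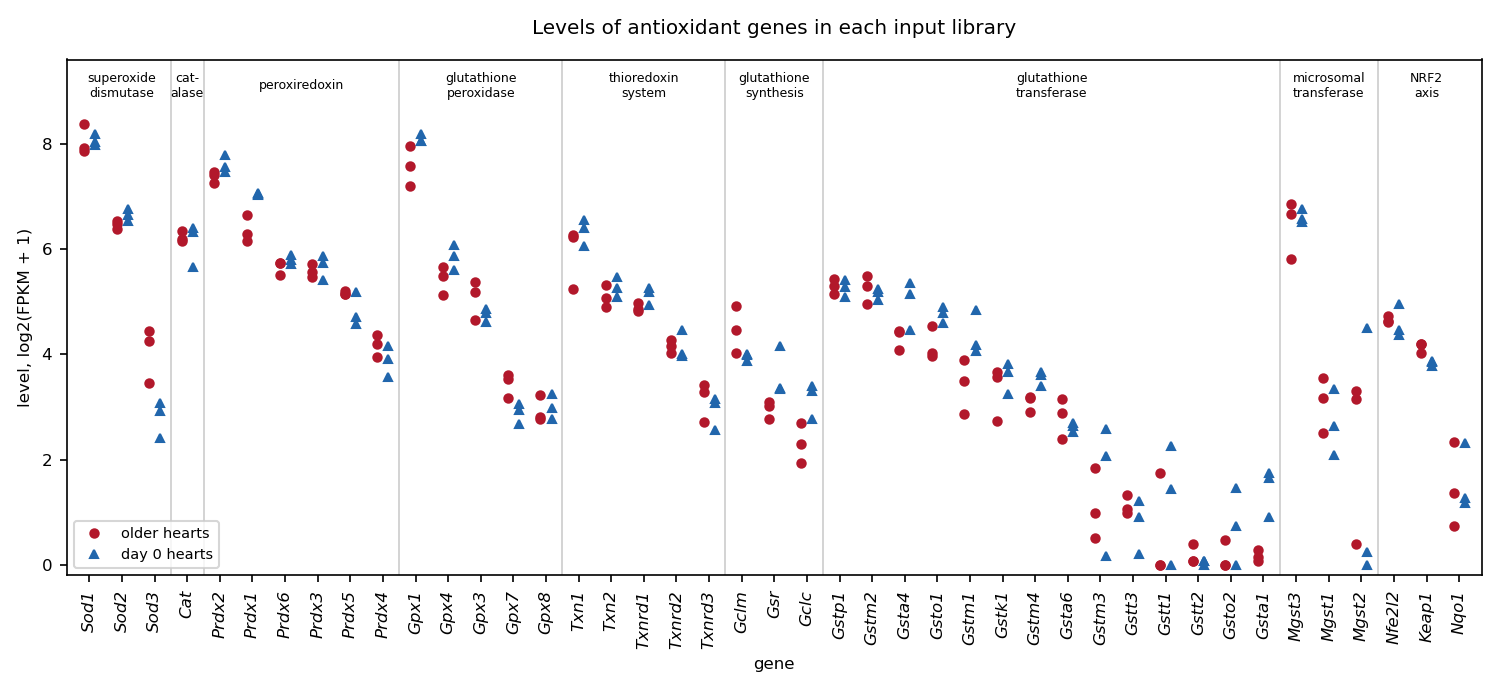
Level of each of the 43 antioxidant genes as log2(FPKM + 1) (vertical axis) in 3 older libraries (red circles) and 3 day 0 libraries (blue triangles), grouped by role and ordered within each role by the mean in older hearts. Sod1, Gpx1 and Prdx2 stood highest at both ages, and the low transferases at the right of their block reached 0 in some libraries.

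Superoxide dismutases differed from each other in how they stood between ages. Sod1, the copper and zinc enzyme of the cytosol, had 242, 232 and 330.2 FPKM in older hearts, against 261, 249 and 289 FPKM at day 0. It was the most abundant of the 43 in older hearts, above 98.7% of the genes tested, and its ages overlapped. Sod1 had a log2 fold change of -0.01 with a 95% interval of -0.35 to 0.34, and its sign turned to positive (0.11) when libraries were centred on the median gene. Sod2, the manganese enzyme of the mitochondrial matrix, averaged 87.04 ± 4.93 FPKM in older hearts and 99.4 ± 8.29 FPKM at day 0 (SD, n = 3), with an interval of -0.44 to 0.06.

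Sod3 encodes the secreted superoxide dismutase that binds the extracellular matrix and vessel walls. It had 9.92, 18.05 and 20.8 FPKM in older hearts, from 272 to 539 reads, against 6.53, 4.29 and 7.39 FPKM at day 0, from 100 to 208 reads. All 3 older libraries lay above all 3 day 0 libraries, and older replicate 1 was the lowest of its age. Mean levels were 16.2 ± 5.64 FPKM in older hearts and 6.07 ± 1.60 FPKM at day 0 (SD, n = 3), a 2.68-fold difference of means. The log2 fold change of Sod3 was 1.25 (SE 0.31), with a limma adjusted p of 0.0480. The call was lost with any 1 library left out except older replicate 1, with limma adjusted p up to 0.155, while the log2 fold change stayed between 1.06 and 1.55. In these tissue libraries, more cells of a type and more RNA per cell cannot be told apart. Fibroblast markers summed to 1870 to 2061 FPKM in older hearts and to 677 to 1092 FPKM at day 0, 8 of 10 were called higher, and none was at 0 in any library. Their part in the level of Sod3 was not tested.

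Catalase, the peroxisomal enzyme that splits hydrogen peroxide without a thiol, was at 80.5, 71.7 and 69.8 FPKM in older hearts, against 82.95, 78.6 and 49.8 FPKM at day 0. Day 0 replicate 3 was the lowest of the 6 libraries and the ages overlapped. For Cat the log2 fold change was 0.10 with an interval of -0.36 to 0.56, and it was -0.13 without day 0 replicate 3.

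Among the 6 peroxiredoxins 1 fell and none rose, where 5.73% of all genes tested were called lower and 3.52% higher. The family had a median log2 fold change of -0.11, against -0.11 for all genes tested. Prdx1, which reduces peroxide in the cytosol and nucleus, had 76.8, 99.4 and 70.3 FPKM in older hearts, from 939 to 1423 reads. At day 0 it had 133, 131 and 129 FPKM, from 1573 to 1876 reads. The day 0 libraries were close to each other, and all 3 older libraries lay below them. Means were 82.2 ± 15.3 FPKM in older hearts and 131 ± 1.65 FPKM at day 0 (SD, n = 3). The log2 fold change of Prdx1 was -0.68 (SE 0.14), with a limma adjusted p of 0.0251. The direction was the same in every fit. The call was lost without older replicate 1 or 3 or day 0 replicate 1 or 2 (limma adjusted p up to 0.0866), and centring on the median gene gave -0.56 with an adjusted p of 0.0542.

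Prdx2, the peroxiredoxin that is also abundant in red cells, was the highest of its family, with 169, 175 and 152 FPKM in older hearts and 175, 220 and 186 FPKM at day 0. The highest older library lay just below the lowest day 0 library. For Prdx2 the log2 fold change was -0.23 with an interval of -0.50 to 0.05. Erythroid markers summed to 3878, 2585 and 1642 FPKM in older hearts, against 2103, 2062 and 1794 FPKM at day 0, so these sums overlapped. Of 11 erythroid genes found, Hbg1 was at 0 in all older libraries, and of 8 tested 1 was called higher. Their part in Prdx2, Gpx1 and Cat was not tested. The mitochondrial Prdx3 averaged 47.1 ± 4.29 FPKM in older hearts and 50.4 ± 8.11 FPKM at day 0, and Prdx6, which also handles lipid peroxides, 49.5 ± 4.28 FPKM in older hearts and 54.6 ± 3.50 FPKM at day 0 (SD, n = 3). Prdx5, found in mitochondria and peroxisomes, was at 34.9 ± 0.870 FPKM in older hearts and 27.8 ± 6.53 FPKM at day 0, and Prdx4, which works in the endoplasmic reticulum, at 17.1 ± 2.61 FPKM in older hearts and 13.9 ± 2.99 FPKM at day 0 (SD, n = 3). None of these 5 passed the threshold, with limma adjusted p from 0.263 to 0.751.

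The stretch before the start of Prdx1 is shown because it is the called gene whose RefSeq promoter entry holds the core of an antioxidant response element. Windows of 30 bases from Gclm, Gstp1, Txnrd1 and Sod2 follow for comparison, as these did not pass the test and hold the core too. Capitals mark the core TGACNNNGC or the AP-1 site TGACTCA on either strand, and the AP-1 site can lie within the core. All are from RefSeq on GRCr8 and are written on the gene's strand.
Prdx1, chr5:135383656-135383905, plus strand: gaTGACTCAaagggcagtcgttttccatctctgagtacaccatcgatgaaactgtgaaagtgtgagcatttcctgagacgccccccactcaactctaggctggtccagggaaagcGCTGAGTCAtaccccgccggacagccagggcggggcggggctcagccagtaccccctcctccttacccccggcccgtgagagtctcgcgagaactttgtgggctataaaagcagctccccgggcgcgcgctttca
Gclm, chr2:213031953-213031982, plus strand: tgcggtttctGCTTAGTCAttgtcttccag
Gstp1, chr1:210769747-210769776, minus strand: tccactgtgtTGACTCAGCatccggggcgg
Txnrd1, chr7:22755963-22755992, minus strand: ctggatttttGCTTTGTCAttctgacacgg
Sod2, chr1:50050184-50050213, minus strand: ggcgctgccgGCAGGGTCAgcgcctagctg

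RefSeq promoter entries of 300 bases matched 36 of the 43 genes, and Sod3, Gsr, Prdx6, Gpx8, Gstt1, Gstt2 and Mgst2 had none. Some genes have several entries, which gave 40. Each entry runs from 250 bases before the start to 50 bases past it. The core TGACNNNGC was in 9 of these 40 (22.5%), against 12.1% of 33469 entries of all genes. Those entries were not limited to genes expressed here, so the shares compare unlike sets of promoters and enrichment cannot be judged from them. In Gsta1, Nfe2l2 and Prdx4 the core lay past the start, and in Prdx5 across it. The AP-1 site TGACTCA was in 3 of 40 (7.5%) and in 4.63% of all. The GC box GGGCGG was in 31 of 40 (77.5%) and in 33.1% of all, the CCAAT box in 19 of 40 (47.5%, against 37.5%) and the TATA box TATAAA in 9 of 40 (22.5%, against 14.2%). All motifs were searched on both strands. The genes whose entry holds the core (Gclm, Gsta1, Gstp1, Nfe2l2, Prdx1, Prdx4, Prdx5, Sod2 and Txnrd1) had log2 fold changes of both signs, from -0.68 for Prdx1 to 0.52 for Gclm among those tested.

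Glutathione peroxidases include selenoenzymes (Gpx1, Gpx3 and Gpx4) and the cysteine enzymes Gpx7 and Gpx8 of the endoplasmic reticulum. None of the 5 was called by limma or by voom on recovered reads, and 2 had an unadjusted limma p under 0.05, as had 25.9% of all genes tested. Gpx1, the main cytosolic enzyme, had 190.4, 248 and 146 FPKM in older hearts, against 264, 290.3 and 265 FPKM at day 0. All older libraries were below all day 0 libraries, and older replicate 2 was the nearest to them. The log2 fold change of Gpx1 was -0.52 with an interval of -0.95 to -0.09 and a limma adjusted p of 0.125. It was the second most abundant of the 43 in older hearts (195 ± 51.2 FPKM) and the most abundant at day 0 (273 ± 14.8 FPKM; SD, n = 3). Gpx4, which reduces lipid peroxides in membranes, averaged 42.4 ± 7.71 FPKM in older hearts and 57.1 ± 9.63 FPKM at day 0 (SD, n = 3), with an interval of -0.84 to 0.00.

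Of the 3 peroxidases of the secretory route or outside the cell, Gpx7 and Gpx3 had positive log2 fold changes and Gpx8 a negative one (-0.06), and none was called. Gpx7 had 7.95, 10.5 and 11.1 FPKM in older hearts, against 7.34, 5.41 and 6.64 FPKM at day 0. Its ages did not overlap, but older replicate 1 was close to day 0 replicate 1, and the log2 fold change of 0.54 (interval 0.04 to 1.03) had a limma adjusted p of 0.160. Gpx3, the secreted plasma enzyme, averaged 33.2 ± 8.32 FPKM in older hearts and 26.1 ± 2.32 FPKM at day 0, and Gpx8 6.72 ± 1.38 FPKM in older hearts and 7.05 ± 1.30 FPKM at day 0 (SD, n = 3). Grouped by the place of the protein, a grouping made after the values were seen, the 5 genes of the secretory route or outside the cell (Sod3, Gpx3, Gpx7, Gpx8, Prdx4) had a median log2 fold change of 0.31, and 4 of them were positive. Of 19 tested cytosolic members 4 were positive (21.1%), with a median of -0.43. Of 6 mitochondrial members 2 were positive (33.3%), with a median of -0.13. Of 3 membrane members 2 were positive, with a median of 0.38, above that of the secretory group. Of 5 members placed in several compartments 3 were positive, with a median of 0.06, and the peroxisomal Cat had 0.10. Over all genes tested 41.4% were positive, with a median of -0.11. No test was made of these medians.

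**Figure D2:**
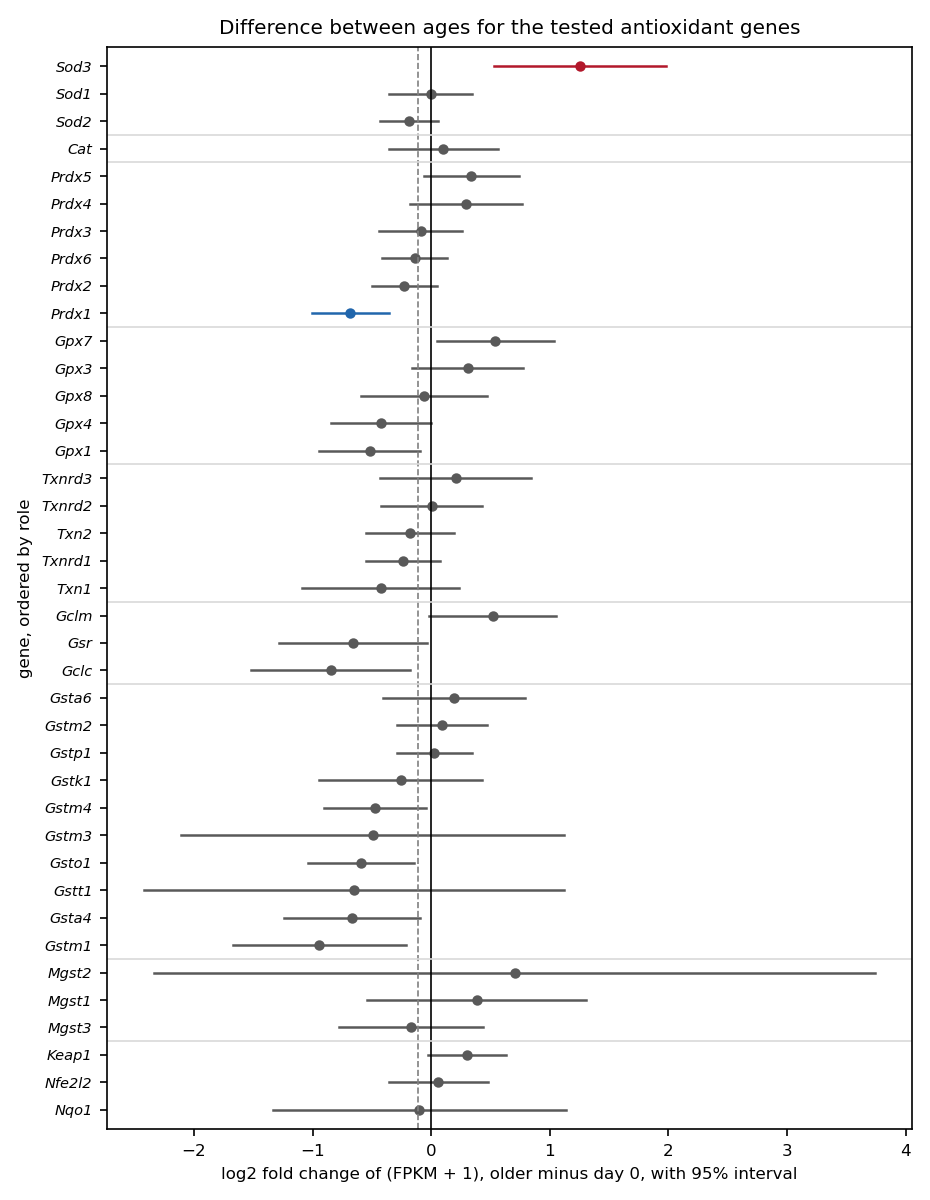
Log2 fold change of (FPKM + 1), older minus day 0 (horizontal axis), for the 39 tested antioxidant genes in order of role, with 95% intervals from limma. Sod3 (red, 1.25) and Prdx1 (blue, -0.68) passed the threshold, grey genes did not, and the dashed line is the median of all genes tested at -0.11.

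The thioredoxin system showed no called gene among 5, by limma or by voom on recovered reads, and 0 had an unadjusted limma p under 0.05. Txn1, the cytosolic thioredoxin, had 36.8, 76.3 and 73.9 FPKM in older hearts, against 92.8, 65.7 and 83.95 FPKM at day 0. Older replicate 1 was low while the other older libraries fell among those of day 0. For Txn1 the log2 fold change was -0.43 with an interval of -1.09 to 0.24, and -0.09 without older replicate 1. The mitochondrial Txn2 averaged 33.3 ± 5.14 FPKM in older hearts and 37.7 ± 5.04 FPKM at day 0 (SD, n = 3). Of the reductases, the cytosolic Txnrd1 was at 28.5 ± 1.60 FPKM in older hearts and 33.99 ± 4.05 FPKM at day 0 (SD, n = 3). The mitochondrial Txnrd2 was at 16.8 ± 1.54 FPKM in older hearts and 16.97 ± 3.58 FPKM at day 0, and Txnrd3 at 8.03 ± 2.19 FPKM in older hearts and 6.78 ± 1.61 FPKM at day 0 (SD, n = 3). The interval for Txnrd2 ran from -0.42 to 0.43, so changes within that range in either direction were not excluded by these libraries.

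Genes that make and recharge glutathione were spread in both directions, and none of the 3 members was called by limma or by voom. An unadjusted limma p under 0.05 was reached by 2 of them and by 25.9% of all genes tested. Gclc, the catalytic subunit of glutamate-cysteine ligase, had 3.91, 2.84 and 5.46 FPKM in older hearts, against 8.90, 5.84 and 9.49 FPKM at day 0. The highest older value lay just below the lowest at day 0 (log2 fold change -0.85, interval -1.52 to -0.18, limma adjusted p = 0.112). Gclm, the modifier subunit that eases feedback by glutathione, had 29.3, 21.1 and 15.4 FPKM in older hearts, against 13.7, 15.02 and 14.9 FPKM at day 0. All older values were above those of day 0, older replicate 3 by little (log2 fold change 0.52, interval -0.02 to 1.05, limma adjusted p = 0.205).

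The ratio of Gclc to Gclm within a library was 0.133, 0.135 and 0.356 in older hearts, against 0.651, 0.389 and 0.638 at day 0. The ratio was lower in 3 of 3 older libraries, by 1.55 on the log2 scale (older -2.43 ± 0.81, day 0 -0.88 ± 0.42; SD, n = 3). A two-sided exact permutation test gave p = 0.1, which is the smallest that 3 against 3 libraries allow, and 0.15 after Benjamini-Hochberg adjustment over 6 ratios. As Gclc was lower and Gclm higher in every older library, their ratio had to separate the ages. Its p therefore adds nothing to the values of both genes. The 6 ratios were chosen after their values were seen, so the adjustment does not cover the other pairs that could have been chosen. Of the others, Gstm1 to Gstm2 differed by -1.11, Sod3 to Sod1 by 1.39 and Prdx1 to Prdx2 by -0.46, each without overlap and with the same exact p. Txnrd1 to Txnrd2 (-0.25) and Nfe2l2 to Keap1 (-0.26) overlapped, with an exact permutation p of 0.4 each.

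Gsr, the reductase that recycles oxidised glutathione, had 7.56, 7.05 and 5.86 FPKM in older hearts, against 9.25, 9.14 and 16.9 FPKM at day 0. Day 0 replicate 3 was far above the other 5 libraries. The log2 fold change of Gsr was -0.66 (interval -1.28 to -0.04, limma adjusted p = 0.169), and -0.39 without day 0 replicate 3. Glutathione synthetase (Gss), which adds the last amino acid, had 4.32, 8.32 and 5.59 FPKM in older hearts, against 11.2, 14.5 and 11.6 FPKM at day 0. Its log2 fold change of -0.96 came close to the threshold without passing it (limma adjusted p = 0.0569), and it is named here after its values were seen.

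**Figure D3:**
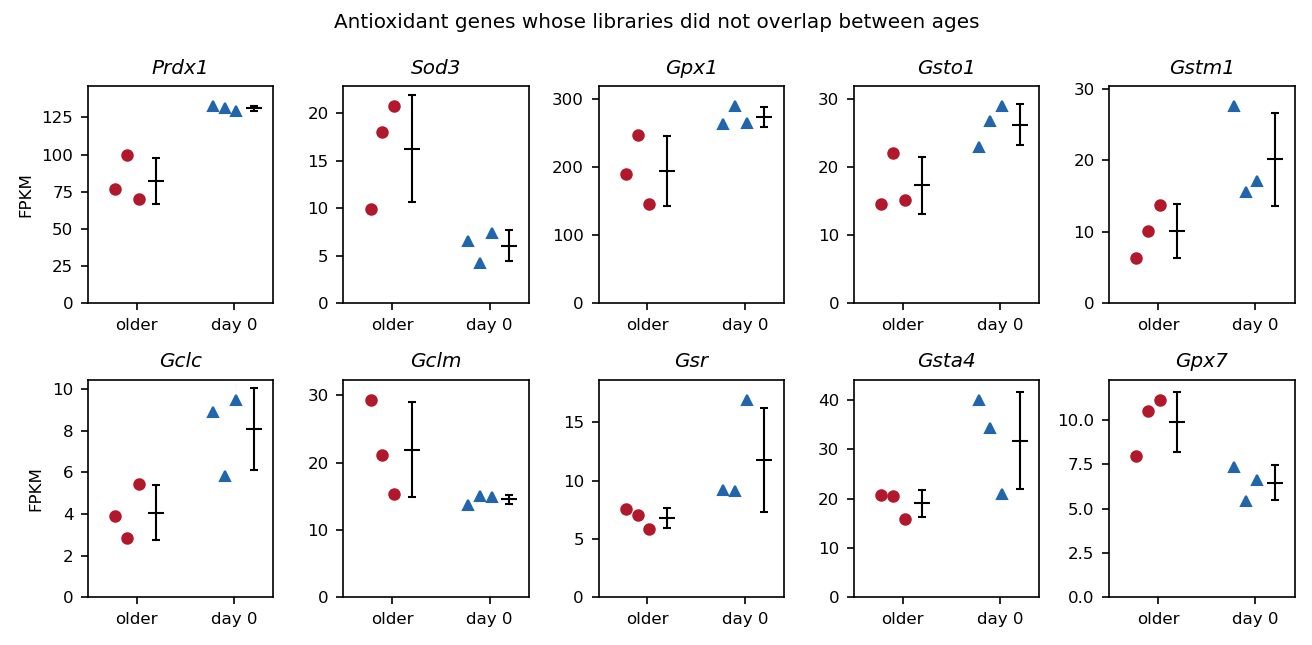
FPKM (vertical axes, from 0) of 10 antioxidant genes in 3 older libraries (red circles) and 3 day 0 libraries (blue triangles), with mean and SD beside the points. The 10 are the tested members picked for no overlap between ages and a log2 difference of at least 0.5. Of all genes tested, 32.5% had no overlap. Gclm, Gpx7, Gsta4, Gsto1, Gclc and Gpx1 have neighbouring values at the edge, and only Prdx1 and Sod3 passed the threshold.

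Cytosolic glutathione transferases, with the mitochondrial Gstk1, were the largest family, with 14 genes of which 10 could be tested. None was called by limma or by voom, and 4 had an unadjusted limma p under 0.05, as had 25.9% of all genes tested. Log2 fold changes were negative in 7 of 10 and positive in 3 (30%, against 41.4% of all genes tested). Their median was -0.48, against -0.11 for all genes tested. The 7 include Gstt1 (-0.65) and Gstm3 (-0.49), which rested on few reads, and the median lies beside Gstm3. Genes of the Gstm and Gsta groups resemble each other in sequence, so their levels are uncertain where reads fit several of them, and no counting rule is stated in the labels. Gstp1, the pi class enzyme, was the most abundant, with 41.96, 34.6 and 38.1 FPKM in older hearts, against 38.0, 41.5 and 33.03 FPKM at day 0. Its ages overlapped and the interval ran from -0.29 to 0.35. Gstm2 stood next at 37.3 ± 6.91 FPKM in older hearts and 34.7 ± 2.73 FPKM at day 0 (SD, n = 3).

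Gstm1 had 6.32, 10.2 and 13.8 FPKM in older hearts, against 27.7, 15.6 and 17.2 FPKM at day 0. All older values were lower, and their mean was 0.502 of the day 0 mean, yet the spread within ages was wide (log2 fold change -0.94, interval -1.67 to -0.21, limma adjusted p = 0.106). Gsto1, an omega class enzyme with thiol transferase activity, had 14.6, 22.1 and 15.2 FPKM in older hearts, against 23.02, 26.7 and 29.0 FPKM at day 0. Its older replicate 2 lay close to the lowest day 0 library (log2 fold change -0.59, interval -1.04 to -0.14, limma adjusted p = 0.1003). Gsta4, which clears the lipid aldehyde 4-hydroxynonenal, had 20.8, 20.5 and 15.9 FPKM in older hearts, against 40.04, 34.3 and 20.9 FPKM at day 0. Day 0 replicate 3 was level with the older hearts, and without it Gsta4 passed the threshold (log2 fold change -0.93, limma adjusted p = 0.0229) where it did not with all 6 libraries (-0.67, 0.140). Gstm4 averaged 7.52 ± 0.915 FPKM in older hearts and 10.8 ± 1.19 FPKM at day 0 (SD, n = 3), also without overlap and with a limma adjusted p of 0.158.

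Low transferases rested on few reads. Gsta1 had 1, 4 and 2 reads in the older libraries, against 15, 37 and 40 reads at day 0, or 0.0545, 0.215 and 0.115 FPKM in older hearts, against 0.887, 2.37 and 2.12 FPKM at day 0. Its ages were well apart, and its mean of all 6 libraries was under the filter. Fitted without the filter it had a log2 fold change of -1.27 (interval -1.97 to -0.56) and a limma adjusted p of 0.0550. In the authors' deposited table its log2 fold change was -3.68 with an adjusted p of 0.0442. The same authors' deposited table has an adjusted p of 0.0158 for Prdx1 and 0.000709 for Sod3, and these 3 of 43 (6.98%) compare with 11.8% of all genes there.

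Gstt1 was measured over a length of only 79 bases as recovered from its values, with 0, 3 and 0 reads in older hearts and 2, 4 and 0 reads at day 0. Its values of up to 3.75 FPKM were therefore a matter of single reads. Gstm3 had 15, 40 and 6 reads in older hearts, against 70, 41 and 2 reads at day 0, and Gsto2 had 0, 0 and 6 reads in older hearts, against 10, 0 and 29 reads at day 0. For both, the day 0 libraries spanned the whole range of the older ones. Gstt2 had 1 to 7 reads in older hearts and 0 to 1 at day 0, and Gstt3 had 28 to 43 reads in older hearts and 4 to 38 at day 0. Gsta6 averaged 6.18 ± 1.83 FPKM in older hearts and 5.15 ± 0.361 FPKM at day 0, and Gstk1 9.36 ± 3.24 FPKM in older hearts and 11.1 ± 2.40 FPKM at day 0 (SD, n = 3).

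Among the microsomal enzymes, which sit in membranes, none of 3 was called by limma or by voom, and 0 had an unadjusted limma p under 0.05. Mgst3 had 54.9, 101 and 115 FPKM in older hearts, against 108, 90.2 and 94.4 FPKM at day 0. Older replicate 1 was the lowest of the 6 libraries, and without it the log2 fold change of -0.17 turned to 0.15. Mgst1 averaged 7.77 ± 3.01 FPKM in older hearts and 5.87 ± 2.998 FPKM at day 0 (SD, n = 3). Mgst2 was present or nearly absent by library, with 48, 2 and 51 reads in older hearts and 1, 0 and 136 reads at day 0, or 7.88, 0.324 and 8.84 FPKM in older hearts, against 0.178, 0 and 21.7 FPKM at day 0. That pattern did not follow age.

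Of the NRF2 axis, Nfe2l2 (NRF2) itself had 23.4, 23.6 and 25.6 FPKM in older hearts, against 21.1, 30.04 and 19.6 FPKM at day 0, with a log2 fold change of 0.06 and an interval of -0.36 to 0.48, and its ages overlapped. Keap1, the adaptor that marks NRF2 for degradation, had 15.3, 17.2 and 17.4 FPKM in older hearts, against 13.5, 12.8 and 13.7 FPKM at day 0. Its ages did not overlap, but the log2 fold change of 0.30 (interval -0.03 to 0.63) did not pass the test (limma adjusted p = 0.233). Nqo1, a quinone reductase often read as a sign of NRF2 activity, was low and uneven, with 0.678, 4.05 and 1.56 FPKM in older hearts and 3.94, 1.41 and 1.24 FPKM at day 0. None of these 3 was called by limma or by voom, and 0 had an unadjusted limma p under 0.05.

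Of 152 further genes of the pathway found in the table, 134 were tested, 10 rose and 4 fell. That is 7.46% and 2.99% of them, against 3.52% higher and 5.73% lower over all genes, and their median log2 fold change was -0.09. The lists were chosen with earlier results of these data known, so no excess or lack of calls can be read from these shares. Of the 14 called genes 5 were called with any 1 library left out, namely Selenop, Nfe2l1, Sqstm1, Ncf1 and Tmx2. Selenop encodes the plasma selenoprotein that carries selenium. It had 172, 191 and 208 FPKM in older hearts, against 81.9, 88.4 and 103 FPKM at day 0 (log2 fold change 1.06, limma adjusted p = 0.00404). The lowest older library was well above the highest day 0 library. Of 20 tested selenoprotein and selenocysteine machinery genes it was the 1 called. Of the 20, 14 had negative log2 fold changes and 6 positive ones (30%, against 41.4% of all genes tested).

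Nfe2l1, a relative of NRF2 that binds the same elements, had 161, 190.2 and 170 FPKM in older hearts, against 78.95, 91.6 and 74.3 FPKM at day 0 (log2 fold change 1.08, limma adjusted p = 0.00314). It was far above Nfe2l2 in FPKM at both ages. Sqstm1, the autophagy receptor p62 that competes for Keap1, had 143, 163 and 196 FPKM in older hearts, against 77.6, 72.9 and 97.9 FPKM at day 0 (log2 fold change 1.01, limma adjusted p = 0.0112). Both were apart without overlap. Btrc, a ubiquitin ligase adaptor that also targets NRF2, was the third called among 18 tested regulators, at 7.10 ± 0.867 FPKM in older hearts and 12.4 ± 0.483 FPKM at day 0 (SD, n = 3). Its log2 fold change was -0.74, with a limma adjusted p of 0.0411. Its call was lost with any 1 library left out. Of 13 other NRF2 target genes none was called by limma, 2 had an unadjusted limma p under 0.05 and voom called 2 higher. Hmox1, the inducible haem oxygenase, was at 5.24 ± 1.82 FPKM in older hearts and 7.08 ± 0.685 FPKM at day 0 (SD, n = 3), with a limma adjusted p of 0.387.

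**Figure D4:**
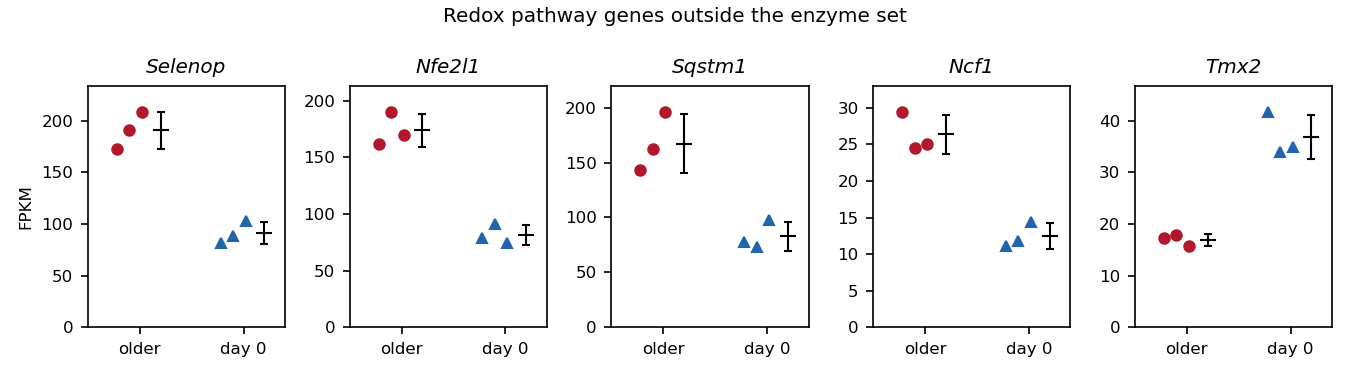
FPKM (vertical axes, from 0) of the 5 pathway genes outside the enzyme set that stayed past the threshold with any 1 library left out, in 3 older libraries (red circles) and 3 day 0 libraries (blue triangles), with mean and SD beside the points. Selenop, Nfe2l1, Sqstm1 and Ncf1 were higher and Tmx2 lower in older hearts, each without overlap.

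Among thioredoxin-fold partners 2 of 24 tested rose and 2 fell. Tmx2, a membrane protein of the thioredoxin family, had 17.3, 17.9 and 15.7 FPKM in older hearts, against 41.7, 33.98 and 34.9 FPKM at day 0 (log2 fold change -1.07, limma adjusted p = 0.00552). Nxn, nucleoredoxin, was the other lower gene (-1.19). Txnip, which binds and inhibits thioredoxin, was at 434 ± 25.6 FPKM in older hearts and 282 ± 52.6 FPKM at day 0 (SD, n = 3), with a log2 fold change of 0.63 and a limma adjusted p of 0.0387. Map3k5, the kinase ASK1 held by reduced thioredoxin, was higher by 0.86 on the log2 scale. The calls of Nxn, Txnip and Map3k5 did not hold with 6, 4 and 5 of the 6 libraries left out in turn.

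Sources of NADPH and of oxidants were also read. Of 16 NADPH supply genes 2 rose, Nnt, the mitochondrial transhydrogenase (383 ± 20.5 FPKM in older hearts and 273 ± 12.5 FPKM at day 0; SD, n = 3; log2 fold change 0.49), and H6pd (0.88), an enzyme of the endoplasmic reticulum. Each call was lost with 5 of the 6 libraries left out in turn. Of 13 tested genes that form superoxide or peroxide 1 rose, Ncf1, a cytosolic subunit of the phagocyte NADPH oxidase, with 29.5, 24.6 and 25.1 FPKM in older hearts, against 11.2, 11.8 and 14.4 FPKM at day 0 (log2 fold change 1.03, limma adjusted p = 0.0105). Macrophage markers summed to 50.7 to 71.9 FPKM in older hearts and 49.9 to 101 FPKM at day 0, with none of 9 called by limma or voom and 1 at an unadjusted limma p under 0.05. Their part in Ncf1 was not tested.

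In the list of other scavenger genes 2 of 15 rose, Ucp3 (1.55), a mitochondrial carrier, and Coq10a (1.01), a coenzyme Q binding protein, and both calls were lost with at least 4 of the 6 libraries left out in turn. Among 15 tested genes of glutathione synthesis, transport and turnover 1 fell, Glo1, the glyoxalase that uses glutathione to clear methylglyoxal. Glo1 had 40.7, 44.3 and 40.9 FPKM in older hearts, against 67.9, 62.5 and 69.7 FPKM at day 0, a log2 fold change of -0.66. Its limma adjusted p was 0.0118, or 0.0529 when older replicate 3 was left out. The ages were far apart relative to the spread within each.

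Endothelial markers summed to 371 to 405 FPKM in older hearts and 274 to 320.3 FPKM at day 0, with 2 of 9 called higher. Pericyte and smooth muscle markers summed to 376 to 400 FPKM in older hearts and 371 to 432 FPKM at day 0, with 1 of 10 called higher and 2 lower. Liver markers, listed to look for other tissue, summed to 9.53 to 11.8 FPKM in older hearts and 3.04 to 6.44 FPKM at day 0. The 1 tested gene, Ttr, was called higher by limma and not by voom. It made nearly all of the older sums (9.71, 11.4 and 8.26 FPKM). Alb and Apoc3 were at 0 in all older libraries, and Hpx at 0 in all day 0 libraries. Apoa1 averaged 0.324 FPKM in older hearts and 0.487 FPKM at day 0. Of the cardiomyocyte markers 1 was called higher and 1 lower among 9. How far these cell types set the levels of the antioxidant genes was not tested.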

How the data were processed

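Input RNA of rat heart was measured with 3 libraries per age. Per the labels' protocols, the libraries were depleted of ribosomal RNA, then reverse transcribed with SMART and amplified by PCR. HISAT2, HOMER 4.10 and rn5 are listed without a role in the submitters' processing notes. For the counter, annotation and strand setting, the answer is not given in the sources used here, so overlapping and antisense genes cannot be told apart. The deposited values are FPKM per gene and library, made by the authors, and the authors' deposited table also holds adjusted p-values and log2 fold changes from a test that is not named. Its columns were matched to samples by name, OD as day 0 and 10D as the only other age in the labels.

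Whole reads were recovered from the FPKM steps for 16894 of 16898 genes (relative tolerance 2e-13), including all 43 members. They give counting error only, as PCR reads are not independent molecules. log2(FPKM + 1) was fitted with limma 3.58.1 in R 4.3.3 (lmFit, eBayes with trend, Benjamini-Hochberg) for genes averaging 1 FPKM or more. Intervals are 95% from that fit. The fit and the read recovery were tested on simulated data. Voom with TMM factors was run on the recovered reads as an alternative.

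Members and lists were chosen with earlier results of these data known, so the lists are no independent evidence. Values in all 6 libraries are given for called members, for those without overlap and a log2 difference of at least 0.5, and for the most abundant of each role, and up to 4 called genes per pathway list are named. Where several rows share a pathway or marker symbol, the row with the highest mean was used. Replicate numbers were not treated as pairs in the main fit. The deviations of libraries with the same number correlated at -0.04, -0.003 and -0.05, which cannot show whether those libraries were prepared together. The values of 1 pathway gene are not reported here.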

Additional observations from a re-analysis of the deposited data

How the results depend on the processing

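With 3 libraries per age, changes of modest size lie within the intervals given, and the calls of Prdx1 and Sod3 depended on the setting. Members called higher were 0 instead of 1 with no filter, with no trend or with the replicate block, and 0 to 1 with 1 library left out. Members called lower were 0 instead of 1 after median centring, after quantile normalization, with no trend or with the replicate block, and 0 to 2 with 1 library left out. A pseudocount of 0.1, a filter at 5 FPKM, a total without mitochondrial genes and voom each kept 1 of each. Among all genes the calls higher were 299 with no trend, 217 with the replicate block, 959 with voom and 167 to 528 with 1 library left out, against 462 as reported. Those lower were 464 after median centring, 479 after quantile normalization, 370 with no trend, 284 with the replicate block and 266 to 731 with 1 library left out, against 752. The split of calls was 617 higher and 464 lower after median centring and 620 and 479 after quantile normalization. Pathway genes higher were 6 with no trend, 5 with the replicate block, 20 with voom and 4 to 12 with 1 library left out, against 10. Those lower were 2 with no filter, median centring, quantile normalization or a total without mitochondrial genes, 1 with no trend or the replicate block, and 1 to 4 with 1 library left out, against 4. Without day 0 replicate 3 the gene that joined Prdx1 was Gsta4. Of 255 alternative log2 fold changes of 17 named members, 242 kept the sign as reported, and the other 13 were of Sod1, Gstp1, Nfe2l2, Cat and Mgst3, none of them called. Whether the replicate numbers pair libraries was not settled. The causes of these changes were not tested.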
